A study of Mus musculus with 8 samples.

Results

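Errfi1 and 3 growth factor receptor genes of the hepatocyte, Egfr, Erbb3 and Met, were examined in a map of DNA held together at RNA polymerase II (Pol II) in mouse liver. They are 4 of the 21887 nuclear protein-coding genes in the annotation used. The genes were picked by name, on the basis of Pol II signal already measured in these same data: Errfi1 was chosen by its dense tags and by its contacts with DNA about 150 kb away. Their levels and those contacts are therefore given as a description, without a test.

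The assay was ChIA-PET, in which chromatin pulled down with a Pol II antibody has its nearby DNA ends joined through a linker, and a short tag from each side of the joint is sequenced as a paired-end tag (PET). Wild-type C57BL/6 mice aged 3 to 6 months, fed freely under a light and dark cycle, gave livers by day (ZT06) or by night (ZT18), and chromatin of 3 to 7 livers was combined for each pull-down with antibody 8WG16. Experiment 1 (JM08) had 2 libraries at ZT06 and 2 at ZT18, and experiments 2 (JM11) and 3 (JM12) had 1 at each time. Dual crosslinking, by EGS as well as formaldehyde, was used in experiments 1 and 3, and formaldehyde alone (single crosslinking) in experiment 2. No column of the table marks a library or a time, so each value below mixes day and night, the experiments are not replicates of one condition, and nothing is said of rhythm.

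The epidermal growth factor receptor family and Met, the receptor for hepatocyte growth factor, are tyrosine kinases at the cell surface that signal through the RAS and MAP kinase cascade and drive hepatocyte growth and liver regeneration. Erbb3 encodes a family member whose own kinase is weak and which signals through its partners. Errfi1 (also called Mig-6) encodes a protein that binds the kinase domain of the activated receptor Egfr, blocks it and promotes its removal, and the gene is itself induced by growth factor and stress signals, which makes it a feedback inhibitor. Antibody 8WG16 recognises the repeated tail of the largest Pol II subunit, with a preference for the form with little phosphate that gathers at gene starts.

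Tags of Errfi1 and Egfr were dense within 1 kb either side of their annotated starts, and shorter stretches before the starts were not counted apart. The stretches of 250 bases before the annotated starts are shown for Errfi1, Egfr and Met. They are from RefSeq on GRCm38.p6, in which 3 of the 4 genes had an entry; Erbb3 had none. All lie on the + strand, and capitals mark matches to the motifs searched. Errfi1 has a start at 150853796 and another at 150855070, and the sequence before the latter is given.
Errfi1, chr4:150854820-150855069: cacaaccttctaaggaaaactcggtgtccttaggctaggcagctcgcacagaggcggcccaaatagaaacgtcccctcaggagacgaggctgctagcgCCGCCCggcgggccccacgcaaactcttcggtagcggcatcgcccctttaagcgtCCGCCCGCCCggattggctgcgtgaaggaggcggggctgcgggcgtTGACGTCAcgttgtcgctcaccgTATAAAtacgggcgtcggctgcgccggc
Egfr, chr11:16751953-16752202: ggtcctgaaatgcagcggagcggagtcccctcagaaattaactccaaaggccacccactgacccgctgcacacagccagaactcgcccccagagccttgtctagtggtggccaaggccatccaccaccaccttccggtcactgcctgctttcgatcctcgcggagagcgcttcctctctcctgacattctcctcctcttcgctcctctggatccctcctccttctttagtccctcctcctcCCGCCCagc
Met, chr6:17463707-17463956: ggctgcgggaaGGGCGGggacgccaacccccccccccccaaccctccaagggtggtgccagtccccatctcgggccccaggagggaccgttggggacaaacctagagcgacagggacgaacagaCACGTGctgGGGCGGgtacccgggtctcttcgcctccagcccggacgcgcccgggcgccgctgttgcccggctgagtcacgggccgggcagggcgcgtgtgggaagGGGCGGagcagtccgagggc

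The Errfi1 sequence held TATAAA, the core of a TATA box, 28 bases before the start (counted to the first base of the match). It also held TGACGTCA, the full cyclic AMP response element, 51 bases before the start, and GGGCGG, a core bound by Sp1, on the opposite strand 152, 97 and 93 bases before it, the last pair overlapping. Met held CACGTG, the E-box bound by BMAL1 and CLOCK, 126 bases before its start, and GGGCGG at 3 places. Egfr held GGGCGG once, on the opposite strand, 9 bases before its start. None of the 3 held AGGTCA, the core of the ROR and REV-ERB element, or TTATGTAA, a D-box. Both strands were searched in 32851 such stretches of the same length, of which 12.4% held TATAAA, 1.55% TGACGTCA, 32.7% GGGCGG, 6.02% CACGTG, 14.0% AGGTCA and 0.819% TTATGTAA. TGACGTCA was added to the search after the sequences were seen. The start of a long noncoding RNA gene, 1700045H11Rik, lies just before the Errfi1 start at 150855070 on the opposite strand, and since PET ends were used without strand, the ends of these neighbours cannot be told apart.

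Errfi1 had the highest density of Pol II tags per length of the 4 genes in each experiment. Over Errfi1 (chromosome 4, 150853796 to 150868889) and 2.5 kb either side, experiments 1, 2 and 3 gave 737, 251 and 250 PET ends. Divided by the mean density of the nuclear genome, this is a relative density of 105 (95% exact Poisson interval 97.8 to 113), 11.8 (10.4 to 13.4) and 20.2 (17.8 to 22.9). Errfi1 thus stood high in every experiment: it was the gene ranked 4 of 21887 by relative density in experiment 1, 9 in experiment 2 and 6 in experiment 3. Intervals here and below cover counting error only. They treat ends as separate, although both ends of a PET joining one fragment to itself fall over the same gene.

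Egfr, the receptor that Errfi1 restrains, had an intermediate level that depended on the experiment. Over Egfr (chromosome 11, 16752203 to 16913907) and 2.5 kb either side, 472, 208 and 407 ends were found in experiments 1, 2 and 3. Its relative density was 8.12 (7.41 to 8.89), 1.18 (1.03 to 1.35) and 3.97 (3.59 to 4.37). In the dual-crosslinked experiments 95.9% and 95.3% of protein-coding genes had a lower density than Egfr, whereas in experiment 2 48.3% did.

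Counted with its flanks, Erbb3 resembled Egfr per length in experiments 1 and 3, although far fewer ends were behind it. Over Erbb3 (chromosome 10, 128567523 to 128589635) and 2.5 kb either side there were 73, 55 and 64 ends. In experiments 1, 2 and 3 its relative density was 7.72 (6.05 to 9.71), 1.92 (1.45 to 2.5) and 3.83 (2.95 to 4.90). The intervals of Erbb3 and Egfr overlapped in experiments 1 and 3. In experiment 2 they did not, and Erbb3 was the higher. Without the flanks, Erbb3 had 7.01, 1.54 and 2.57 in experiments 1, 2 and 3, and Egfr had 7.63, 1.11 and 4.01. The likeness in experiment 3 thus rested on the flanks. Another gene, Pa2g4, comes within 1.6 kb of the lower boundary of Erbb3, so that flank covers part of it.

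Met was near the level of a typical gene. Over Met (chromosome 6, 17463349 to 17573980) and 2.5 kb either side there were 59, 137 and 98 ends. Its relative density was 1.46 (1.11 to 1.89), 1.12 (0.941 to 1.32) and 1.38 (1.12 to 1.68) in the same experiments. The median over all protein-coding genes was 1.22, 1.20 and 1.42 in the same order, inside the interval of Met each time. The order of levels with flanks was thus Errfi1, then Egfr and Erbb3 with overlapping intervals, then Met in experiments 1 and 3. In experiment 2 it was Errfi1, Erbb3, Egfr, Met, and the last pair had overlapping intervals. In bulk liver, few cells with much Pol II on a gene and many cells with little cannot be told apart.

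**Figure D1:**
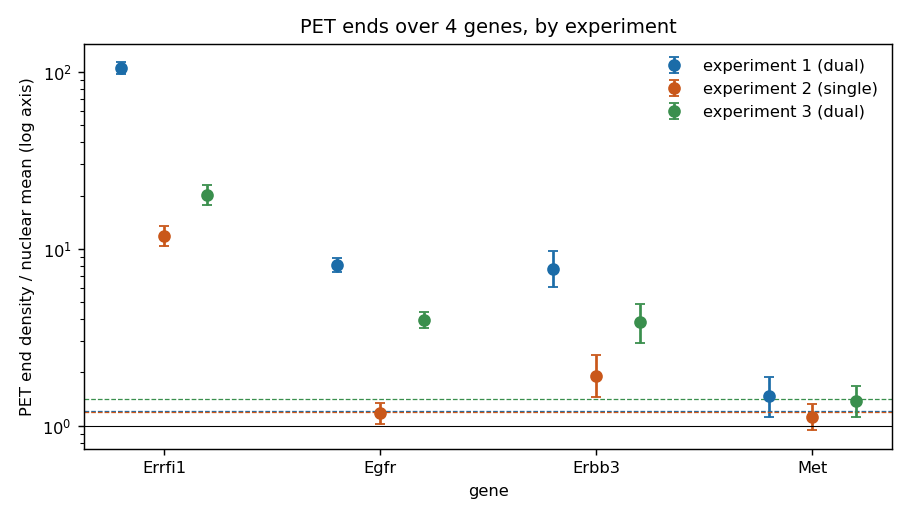
PET end density over each gene and 2.5 kb either side, relative to the nuclear mean (log axis), by experiment; bars are 95% exact Poisson intervals, the solid line marks the nuclear mean and dashed lines the median of all protein-coding genes in each experiment. Errfi1 lies between 11.8 and 105, and Met lies on the dashed lines.

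A gene was called dense when its relative density was at least 2 in each of the 3 experiments, which 5.32% of protein-coding genes met. Errfi1 met it, and Egfr, Erbb3 and Met did not. With experiments 1 and 3 alone, an alternative added after the data were seen, Egfr and Erbb3 also met it, as did 19% of all genes. These counts rest on the values that chose the genes and are given as a description.

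Each experiment used linkers with 2 different sequences, and no source used here links them to libraries. Errfi1 had a relative density of 118 and 96.7 in the linker subsets ATGT and TAAG of experiment 1, 18.7 and 9.77 in those of experiment 2, and 18 and 22.2 in those of experiment 3. The experiment 2 subsets had intervals that did not overlap (15.1 to 23.0 and 8.31 to 11.4), and those of experiments 1 and 3 did. Met had 0.909 (0.509 to 1.5) and 1.85 (1.34 to 2.48) in experiment 1, and Erbb3 had 8.79 and 6.99. Errfi1 had the highest density of the 4 genes in all 6 subsets.

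The tags of Errfi1 and Egfr were dense at their annotated starts. Within 1 kb of the Errfi1 start at 150855070 there were 204, 128 and 68 ends, a relative density of 292 (254 to 335), 60.5 (50.5 to 71.9) and 55.2 (42.9 to 70.0) in experiments 1, 2 and 3. The start at 150853796 had 47.3, 15.1 and 9.74, and since the windows of the Errfi1 starts overlap, the tags at each cannot be fully separated. At the Egfr start (16752203) there were 115, 36 and 20 ends, or 165 (136 to 198), 17.0 (11.9 to 23.6) and 16.2 (9.92 to 25.1). Egfr therefore had a dense start in experiment 2 as well, where its whole length was near the genome mean.

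Erbb3 had an uneven pattern too. Its upper annotated boundary (128589635) had 40.1 (26.7 to 58.0), 8.51 (5.04 to 13.4) and 19.5 (12.5 to 29.0) within 1 kb, and its lower boundary (128567523) had 11.5, 0.945 and 4.87. The table used here gives no strand for Erbb3, so which boundary is the start is not stated. At the Met start (17463957) 9, 2 and 9 ends were found, a relative density of 12.9 (5.90 to 24.5), 0.945 (0.115 to 3.42) and 7.31 (3.34 to 13.9). Met thus had tags above the genome mean at its start in the dual-crosslinked experiments, and in experiment 2 the interval held the mean.

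Beyond the start, Errfi1 differed between experiments. The gene was divided by coordinate into 5 equal parts, of which the first held 270, 154 and 83 ends in experiments 1, 2 and 3, and the last held 57, 3 and 41. The last part thus had a relative density of 54.2, 0.940 and 22.1. The upper 3 of the 5 parts held 35.9% (Wilson 95% interval 32.2 to 39.8%), 11.4% (7.87 to 16.1%) and 44.1% (37.5 to 51.0%) of the gene's ends, where an even spread would give 60%. The 5 kb past the upper boundary of Errfi1, where its transcription ends, had 133, 11 and 50 ends, or 76.3, 2.08 and 16.2 times the genome mean. The tags of experiments 1 and 3 thus ran through the gene and past its end, and those of experiment 2 lay mostly in its first part. The share was chosen after the profile was seen. Single crosslinking was used in experiment 2 alone, so crosslinking and experiment cannot be told apart.

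**Figure D2:**
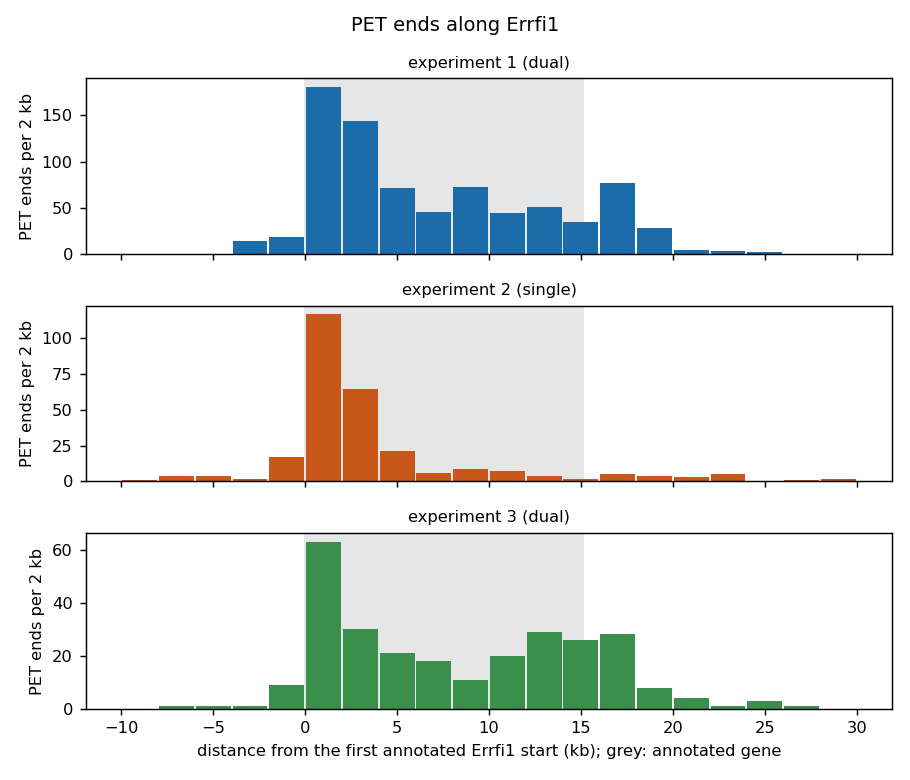
PET ends per 2 kb along Errfi1 in each experiment, against the distance in kb from its first annotated start; the grey area is the annotated gene, and each panel has its own vertical scale. Experiments 1 and 3 keep tags to the end of the gene and beyond, with 133 and 50 ends in the next 5 kb, against 11 in experiment 2.

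Egfr, a gene over 10 times as long, had its own pattern along the length. The first of its 5 parts had a relative density of 23.3, 1.78 and 5.32 in experiments 1, 2 and 3, and the last had 2.84, 1.08 and 3.26. The upper 3 parts of Egfr held 25.8% (21.9 to 30.2%), 53.7% (46.6 to 60.6%) and 51.6% (46.7 to 56.5%) of its ends. Experiment 1 was therefore the most concentrated at the start of Egfr, whereas experiment 3 had 3.26 to 4.37 in each of the last 4 parts. Erbb3 had its highest part at the upper end in every experiment (21.4, 3.64 and 5.88). Met had no part above 2.59 in any experiment.

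**Figure D3:**
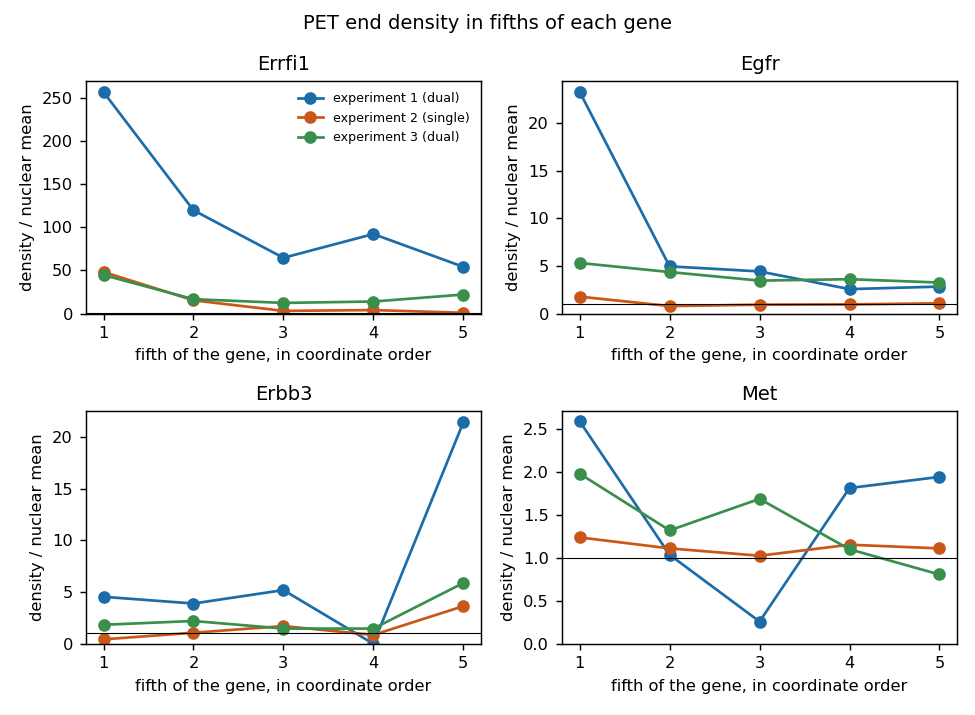
Relative density of PET ends in 5 equal parts of each gene, in coordinate order, by experiment; the thin line is the nuclear mean, and the vertical scales differ between genes. Errfi1, Egfr and Met are read from left to right; Errfi1 falls from 257 to 54.2 in experiment 1.

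PETs over these genes were sorted by how far apart their ends lay. Of 572, 209 and 214 PETs over Errfi1 in experiments 1, 2 and 3, those with ends at most 8 kb apart made up 29.4% (Wilson interval 25.8 to 33.2%), 20.1% (15.2 to 26.0%) and 16.8% (12.4 to 22.4%). The share in the whole table was 22.5%, 6.23% and 14.8%. PETs between chromosomes were the largest class over Errfi1, with 382, 161 and 160. They were also the largest class in the whole table, at 73.1%, 88.7% and 80.2% of nuclear PETs. Egfr had 30.4%, 9.47% and 14.4% within 8 kb, and Met had 22.9% (13.3 to 36.5%), 3.79% (1.63 to 8.56%) and 3.16% (1.08 to 8.88%). When only ends of PETs between chromosomes were counted, Errfi1 had a relative density of 74.6, 8.55 and 16.1, lower than with all PETs in each experiment. No PET joined any of the 4 genes to another, where the product of their ends gives 0.445 for Errfi1 and Egfr and less for the other pairs.

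A contact was a PET from a gene to DNA on the same chromosome at a distance of 8 kb to 1 Mb. Errfi1 had 6 contacts, 3 from each of experiments 1 and 3 and 0 from experiment 2. At least 1 contact was found for 24.5% of protein-coding genes and at least 6 for 0.164%, a share given for scale only because Errfi1 was chosen with its contacts known. Genes with many ends have more contacts, and the contacts per end of all genes give 3.61 for the ends over Errfi1, inside the Poisson interval of its 6 contacts (2.20 to 13.1). All 6 partners of Errfi1 lay at lower coordinates, before the gene, and 0 of its 995 PETs was a contact with the side past its end. This allows a share of up to 0.302%, or 3 PETs, beside the 6 on the lower side. Only 46 of the 995 PETs had ends over 8 kb apart on the same chromosome, so the difference between sides rests on few PETs.

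Partners of Errfi1 gathered in one region. In experiment 1 a PET joined 150856753 with 150706507, 150.2 kb away. In experiment 3 a PET joined 150855038 with 150710031 (145 kb), and another joined 150856466 with 150704749 (151.7 kb). A further PET of experiment 1 joined 150851293 with 150706537 (144.8 kb). Its end at 150851293 lay 2503 bp before Errfi1, just outside the 2.5 kb used, so the PET was not counted as an Errfi1 contact. That end lay inside 1700045H11Rik, the long noncoding RNA gene at 150828225 to 150854949, which also covers the Errfi1 start at 150853796. These 4 PETs came from the 4 different linker subsets of experiments 1 and 3, and their partner ends spanned 5283 bp. None came from experiment 2. Of the partner ends, 3 lay inside the lower end of Gm36600, a long noncoding RNA gene at 150705136 to 150739130, and the other lay just below it. The remaining contacts of Errfi1 were single PETs at 97.6 kb (to no annotated gene), 238.3 kb (to Rere, a transcriptional corepressor gene) and 616.5 kb (to Eno1, which encodes the glycolytic enzyme enolase).

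In bins of 10 kb, the densest Errfi1 bin (150850000 to 150859999) and the bin 150 kb below it (150700000 to 150709999) were joined by 3 PETs, as the partner end at 150710031 fell 31 bp into the next bin. These include the PET with its end at 150851293, inside 1700045H11Rik and before Errfi1. Chance ligation, taken as the product of the ends in both bins without PETs within 8 kb, gives 0.0103 PETs over the 3 experiments, and the genome-wide number of PETs per product of ends at the same separation gives 0.0614. Of all bin pairs with a PET over 8 kb, 0.00886% (12 pairs) had at least 3. The pair was chosen for this count, so no test is given. With 1 and 2 PETs in the experiments that had any, the count cannot be compared between experiments.

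The partner bin was itself dense. It held 48, 24 and 21 ends in experiments 1, 2 and 3, a relative density of 13.8, 2.27 and 3.41. The Errfi1 bin held 432, 223 and 124 ends, ranked 9, 20 and 26 of 250577 bins. The densest 100 bp held 8.99% of the ends of the Errfi1 bin and 7.53% of those of the partner bin, so neither was filled by a single stretch. Among all bins, 0.915% had a relative density of at least 2 in each experiment. In the 200 kb flanks, 3 of 38 bins around Errfi1 met this, of which one is the partner bin, another lies 20 kb farther below and holds no annotated gene (4.30, 2.55 and 2.92), and the last begins 56.2 kb above the gene's lower boundary (6.88, 2.93 and 3.25). Around Erbb3 2 of 38 met it, over Nabp2 and Rnf41 and over Zc3h10 and Rpl41. None did around Egfr or Met.

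**Figure D4:**
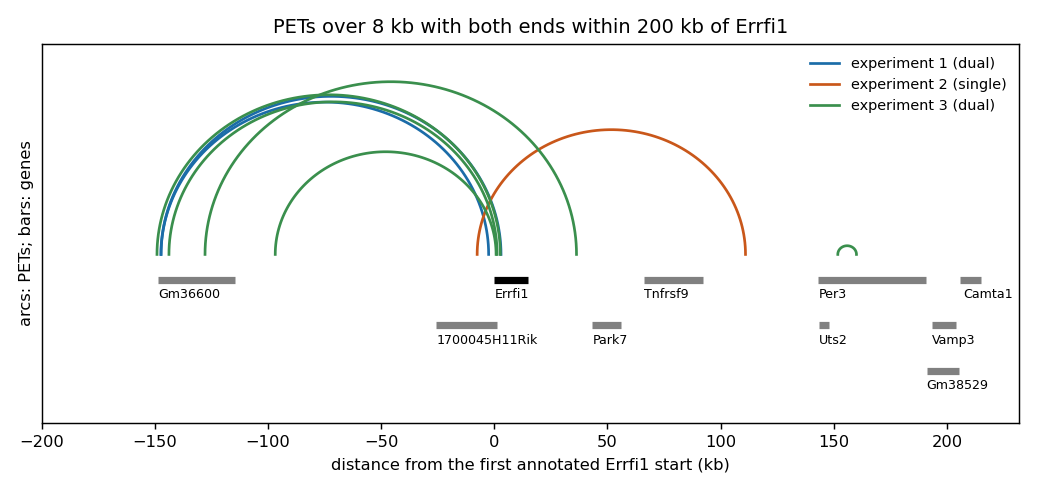
PETs over 8 kb with both ends within 200 kb of Errfi1, drawn as arcs against the distance in kb from its first annotated start, with annotated genes as bars below. Of 8 arcs, 4 join DNA around the Errfi1 starts (150851293 to 150856753) with DNA in or just below the lower end of Gm36600 (150704749 to 150710031). All 4 are from dual-crosslinked experiments. The end at 150851293 lies inside 1700045H11Rik and before Errfi1.

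Per3, a circadian clock gene, lies 128.1 kb past Errfi1. No PET joined them (0.0371 by the product of ends), and Per3 had a relative density of 1.69, 1.40 and 1.29. The gene nearest on that side, Park7, which encodes a protein that protects from oxidative stress, had 5.32, 1.12 and 2.74. None of the 7 protein-coding genes within 200 kb of Errfi1 (Park7, Tnfrsf9, Per3, Uts2, Gm38529, Vamp3 and Camta1) was called dense, and with 5.32% called over all genes so small a count says little. Errfi1 itself, without the 2.5 kb flanks, held 56.4%, 29.4% and 31.2% of the ends of the whole 200 kb window in experiments 1, 2 and 3.

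The receptors had fewer contacts. Egfr had 3, against 3.53 from its ends (Poisson interval of the count 0.619 to 8.77). One of experiment 1 joined its start region (16753196) with DNA 163.7 kb below at 16589486, over no annotated gene, and 2 of experiment 3 joined places within Egfr, 11.7 and 30.7 kb apart. Erbb3 had 2, against 0.576 from its ends (0.242 to 7.22), both in experiment 3 and both from within 1 kb of its upper boundary. One reached 128598668, 9.9 kb away and over no annotated gene, and the other reached 128696545, 107.6 kb away, where Rab5b, Pmel and Cdk2 meet. Cdk2, a kinase of the cell cycle, was called dense (8.29, 2.11 and 3.62). Met had 1, against 0.788 from its ends (0.0253 to 5.57), in experiment 2, to a place 823.3 kb away over no annotated gene. Each of these partners was seen once.

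The neighbourhoods of the receptors differed in gene content. Erbb3 lies among 20 protein-coding genes within 200 kb, of which 4 were called dense, beside 5.32% of all genes: Coq10a, Zc3h10, Rpl41 and Cdk2. Rpl41, which encodes a ribosomal protein, had the highest density among these 4, at 15.6, 2.65 and 5.63. Zc3h10 and Rpl41 are adjacent and their windows with flanks overlap, so these calls share ends and are not separate. Myl6 and Myl6b, genes for myosin light chains, had 13.9 and 13.2 in experiment 1 but 1.30 and 1.39 in experiment 2. The other neighbours of Erbb3 were Ankrd52, Slc39a5, Nabp2, Rnf41, Smarcc2, Esyt1, Pa2g4, Rps26, Ikzf4, Suox, Rab5b, Pmel, Dgka and Pym1, with 1.05 to 6.25 in experiment 1. None of the 3 neighbours of Egfr (Fbxo48, Plek and Cnrip1) or the 4 of Met (Cav2, Cav1, Capza2 and St7) was called, counts too small to set against the share over all genes. Ends over the gene itself made up 73.3%, 32.4% and 60.4% of the 200 kb window of Egfr, and 12.5%, 6.59% and 6.96% of that of Erbb3.

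The wider pathway was taken from lists of 73 genes, chosen with earlier results of these data known. Among ligands, 1 of 13 (7.69%) was called dense, beside 5.32% of all genes, and so small a count says little. The gene called was Mst1, which encodes a liver-made relative of hepatocyte growth factor, with 20.6 (16.0 to 26.0), 3.25 (2.23 to 4.56) and 5.74 (3.98 to 8.02). It is 4619 bp long, so much of its window is the 2.5 kb at either side. Hgf, the ligand of Met, had 1.62, 1.41 and 1.05. The Egfr ligand genes Egf, Tgfa, Areg, Hbegf, Btc, Epgn and Ereg had between 0.597 and 2.53 in experiment 1. Of 8 genes that process ligands, 1 was called, again too small a count to set against the share over all genes. It was Hpn, a membrane protease of hepatocytes that can activate hepatocyte growth factor, with 11.8, 2.76 and 4.81.

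No receptor of 6 was called in all experiments, and with 5.32% of all genes called, counts of 6 or 8 genes say little. Beside Egfr, Erbb3 and Met, Erbb2 had 1.33, 1.56 and 1.67, and Erbb4 had 1.03, 1.27 and 0.999. Mst1r, the receptor of the Mst1 product, had 2.01, 1.43 and 2.19. The 8 other growth factor and hormone receptors (Fgfr4, Klb, Insr, Ghr, Lepr, Il6ra, Il6st and Prlr) had none called and 1.03 to 2.74 in experiment 1, below Egfr and Erbb3 at 8.12 and 7.72. In experiment 2 they had 0.858 to 1.18, where Erbb3 had 1.92 and Egfr, at 1.18, lay within their range. In experiment 3 they had 0.755 to 2.56, below Egfr and Erbb3 at 3.97 and 3.83. Of 18 adaptors and effectors, 2 (11.1%) were called, beside 5.32% of all genes, a small count as well. They were Hras, a RAS GTPase, with 7.26, 3.96 and 3.58, and Shc1, an adaptor that binds activated receptors, with 4.87, 2.01 and 3.75. Hras is 4086 bp long, so much of its window is flank.

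The feedback inhibitors had 5 of 20 called, and 4 of 19 (21.1%) without Errfi1, beside 5.32% of all genes. These 4 are 2882 to 4653 bp long, so much of each window is the 2.5 kb at either side. The share over all genes is not matched for length. Errfi1 was the highest. Dusp1, a phosphatase of MAP kinases, followed with 37.1 (30.3 to 45.1), 8.64 (6.76 to 10.9) and 14.6 (11.4 to 18.5). Dusp6, a phosphatase of ERK, had 32.8, 5.93 and 8.07, and Socs3, which restrains cytokine receptors, had 9.61, 3.78 and 6.14. Spry1, an inhibitor of RAS signalling, had 2.08 (0.836 to 4.29), 2.16 and 3.70, just past the threshold with 7 ends in experiment 1. The median of the 20 was 2.01, 1.41 and 2.11, against 1.22, 1.20 and 1.42 over all genes, so the dense members were a minority. Over all 73 genes 9 were called, or 8 of 69 (11.6%) without the 4 genes named at the opening. With experiments 1 and 3 alone 19 of these 69 (27.5%) were called, beside 19% of all genes.

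**Figure D5:**
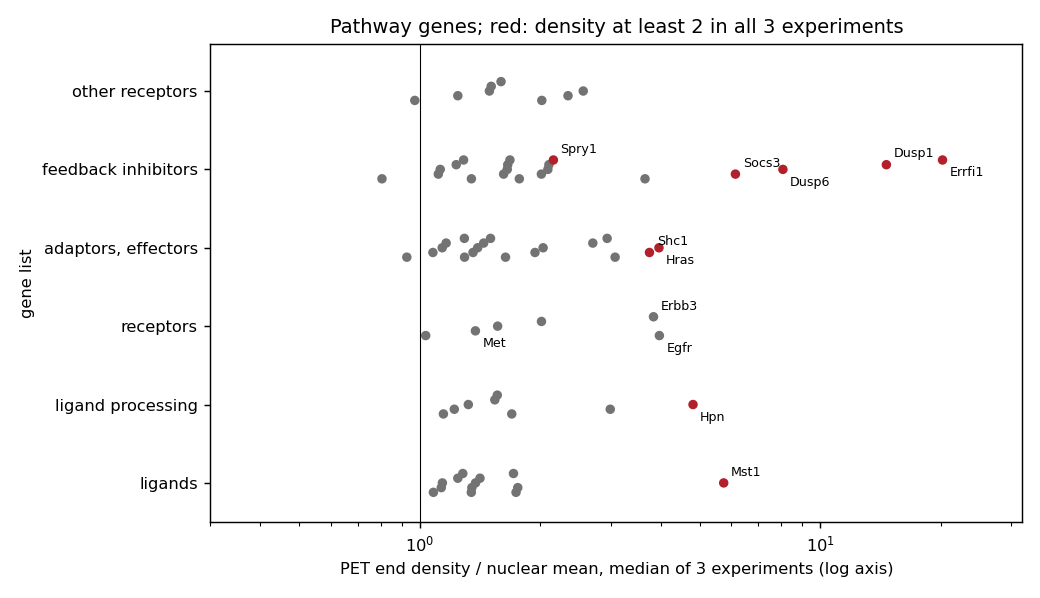
Relative density of PET ends (median of 3 experiments, log axis) for each gene of the pathway lists; red points had at least 2 in all experiments, and the line marks the nuclear mean. Errfi1 is farthest to the right at 20.2, followed by Dusp1 at 14.6, and Egfr and Erbb3 lie at 3.97 and 3.83.

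Genes with a pattern most like each member were found by the distance between log2 relative densities over the 3 experiments, among protein-coding genes of similar length. For Errfi1 they were Alb (distance 0.498), Tat (0.618) and Alas1 (1.51), of 7746 candidates. Alb, which encodes albumin, had 105, 9.26 and 15.8, Tat, a tyrosine-degrading enzyme gene, had 76.1, 13.0 and 15.5, and Alas1, the first enzyme of heme synthesis, had 52.7, 5.63 and 15.7. For Egfr they were Scp2 (0.439), Cps1 (0.537) and Ttc39c (0.812), for Erbb3 Esrra (0.0745), Clk2 (0.0982) and 1700037H04Rik (0.0983), and for Met Bzw2 (0.0458), Shld1 (0.0461) and Zfp277 (0.0559). The likeness rests on 3 values a gene, and distances are small where many genes have a like level.

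The liver label was checked with marker genes. Of 5 hepatocyte markers, 4 were called dense (Alb, Apoa1, Ttr and Cyp2e1), beside 5.32% of all genes, and Cps1 had 11, 1.45 and 4.22. None of the 12 markers of Kupffer, liver endothelial and stellate cells was called, a count too small to set against that share. Their medians in experiment 1 were 0.653, 1.39 and 1.01 in the same order of cell types. Of 4 cholangiocyte markers, 1 was called (Sox9, with 5.71, 2.15 and 4.77). The others, Krt19, Krt7 and Epcam, had 1.98, 0.844 and 1.14 in experiment 1. The table held 474466, 1438852 and 837971 nuclear PETs in experiments 1, 2 and 3, and an average bin of 10 kb held 3.49, 10.6 and 6.16 ends.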

How the data were processed

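The authors deposited 1 table without a header, with a row for each PET that gives its experiment, linker sequences, the position of both ends and a distance (bp). Per the submitters' processing notes, Bowtie2 and mm10 were used; no source used here gives duplicate removal or filters. Positions were counted as they stand. PETs with a mitochondrial end (2265 of 2753554) were left out. Gene positions are from RefSeq GRCm38.p6, the same assembly as mm10. Relative density is the number of ends per length, with 2.5 kb added at each side of a gene, divided by all nuclear ends over the nuclear length (the sum of the highest positions, 2722202177 bp). Intervals are exact Poisson, or Wilson for shares. The members, gene lists and motifs were chosen with earlier results of these data known. The genes named are the members, all protein-coding genes within 200 kb, up to 5 called genes of each list, the 3 genes most alike and the genes at contact partners; others of the lists are named as chosen after their values were seen. No test was run: PETs of all libraries of an experiment are together. Scripts used Python 3.11.15, numpy 2.4.6, pandas 2.3.3 and scipy 1.17.1, and were tested on simulated data.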

Additional observations from a re-analysis of the deposited data

How the results depend on the processing

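Of 174 alternative values, 120 stayed within the counting interval of the main value or within 1.5 times a count. In the median relative density over experiments Errfi1 was highest and Met lowest under each alternative run, whereas the order of Egfr and Erbb3 turned without experiment 1 and without experiment 3. In experiment 2 alone Met was above Egfr with no flank (1.13 against 1.11), from PETs between chromosomes (1.13 against 1.05) and, by less than the rounding (1.11 each), with short PETs counted once. Medians over experiments that moved are as follows. Errfi1 (20.2) had 17.2 with a flank of 5 kb, 16.1 from PETs between chromosomes alone, 14.3 relative to the median gene, and 16.0, 62.7 and 58.5 without experiment 1, 2 and 3. Egfr (3.97) had 3.46 from PETs between chromosomes, 2.80 relative to the median gene, and 2.57, 6.04 and 4.65 without experiment 1, 2 and 3. Erbb3 (3.83) had 2.57 with no flank, 2.71 relative to the median gene, and 2.88 and 5.78 without experiment 1 and 2. Met (1.38) had 0.972 relative to the median gene. Of the start windows, the narrower one gave 84.4 for the Errfi1 start at 150855070 and 1.62 for the lower boundary of Erbb3, and 2.5 kb either side gave 29.1 and 36.5 for the Errfi1 starts, 11.7 for the Egfr start and 8.77 for the upper boundary of Erbb3. Contacts of Errfi1 fell from 6 to 3 without experiment 1 or without experiment 3. Contacts of Egfr fell to 1 without experiment 3, those of Erbb3 to 1 with a minimum of 20 kb and to 0 without experiment 3, and those of Met to 0 without experiment 2. The Errfi1 pair had 1 PET in 5 kb bins and 1 without experiment 1. Collapsing near-duplicates within 2 bp moved none of these values past its interval. The cause was not tested beyond fewer experiments or narrower bins. No paired analysis was possible because no column of the table carries a library or replicate number. Single contacts cannot be compared between experiments at this depth.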
